A study of Mus musculus with 4 samples.

Results

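Cardiac muscle genes are described here in fetal mouse lung RNA: 38 genes of the contractile apparatus, calcium handling, energy supply and gene control of heart muscle cells, out of 28478 gene names on the array. They were found by gene name among the spots that are not controls, which gave 73 of 41174 probes and 91 of 43379 spots per array. Lungs of Fgf8 hypomorph fetuses (Fgf8H/-) were compared with lungs of wild type littermates (Fgf8+/+) at E18.5, both on a strain background labelled c57nl7/sv129, to ask how reduced Fgf8, a secreted fibroblast growth factor, alters lung gene expression. Large airways and vessels were trimmed off the lobes, and RNA of 3 lungs of a genotype was pooled. Each of 4 two-colour arrays, called replicates 1 to 4, held 1 hypomorph pool in Cy5 and 1 wild type pool in Cy3, so n = 4 separate pools per genotype, per the labels. The sample titles call the mutant AP/N, and what these letters stand for is not stated there. The genotype is that of the whole fetus, not of lung cells alone.

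Heart muscle contracts by sliding thick myosin filaments along thin actin filaments in sarcomeres, which are anchored at Z-discs. Calcium released from the sarcoplasmic reticulum starts each beat, and pumps of that reticulum take it back. In mice, heart muscle is not limited to the heart: sleeves of atrial-type cardiac muscle follow the pulmonary veins into the lung, so RNA of a lung can hold cardiac transcripts. Many of these genes are also used in slow or fetal skeletal muscle.

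Of the 38 members, 37 were measured, each with a probe well above background in both genotypes on at least 3 arrays. Among the 37, 12 were lower in hypomorph lungs in limma's moderated test, with Benjamini-Hochberg adjustment over 20579 genes and a threshold of 0.05. Over all genes tested, 13.2% were lower and 14% were higher. No member was higher in limma. At an unadjusted p under 0.05, 21 members were lower and 0 were higher, against 21.7% and 21.5% of all genes. The genes called lower were the mitochondrial subunits Cox8b, Cox6a2 and Cox7a1, the calcium regulators Sln, Pln, Ryr2 and Atp2a2, and the sarcomere genes Tnni3, Ttn, Myom2, Nebl and Tcap. Their mean log2 ratio of hypomorph over wild type ran from -1.06 for Cox8b to -0.39 for Tcap. The median over the 37 members was -0.42, against -0.00 over all genes tested, and 35 members had a mean below 0. In bulk RNA, fewer heart muscle cells in a lung pool and less RNA per such cell cannot be told apart.

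Wild type pools 3 and 4 stood apart, with higher levels of most members than the other 6 pools, and the count of 12 depended on which arrays entered. It was 20 without replicate 1, 8 without replicate 2, 3 without replicate 3 and 6 without replicate 4. Lower calls over all genes moved as well, from 2726 with all arrays to 2951, 660, 1032 and 1783 in the same order. The counts of members thus fell in part as calls fell over the whole array. Without replicates 3 and 4 together, 0 members were called lower by limma, while 177 genes of all were called, against 5605 with all arrays. At an unadjusted p under 0.05 in that fit, 13 members were lower and 2 were higher, against 16.3% and 13.8% of all genes, and 23 of the 35 members tested had a mean below 0. With the scanner's processed signals and with the deposited series table, 7 of the 12 calls remained, and the 5 lost were the sarcomere genes Tnni3, Ttn, Myom2, Nebl and Tcap. Ryr2, Pln and Cox8b were the 3 members that passed the test in each of the fits that left out a single array. When the arrays were centred on the median in place of loess, 17 members were lower and 3 were higher, which were Myh7, Gja5 and Smpx. That centring moved the median of all genes to 0.13 and their split to 8334 higher and 2427 lower, against 2879 higher and 2726 lower with loess.

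**Figure D1:**
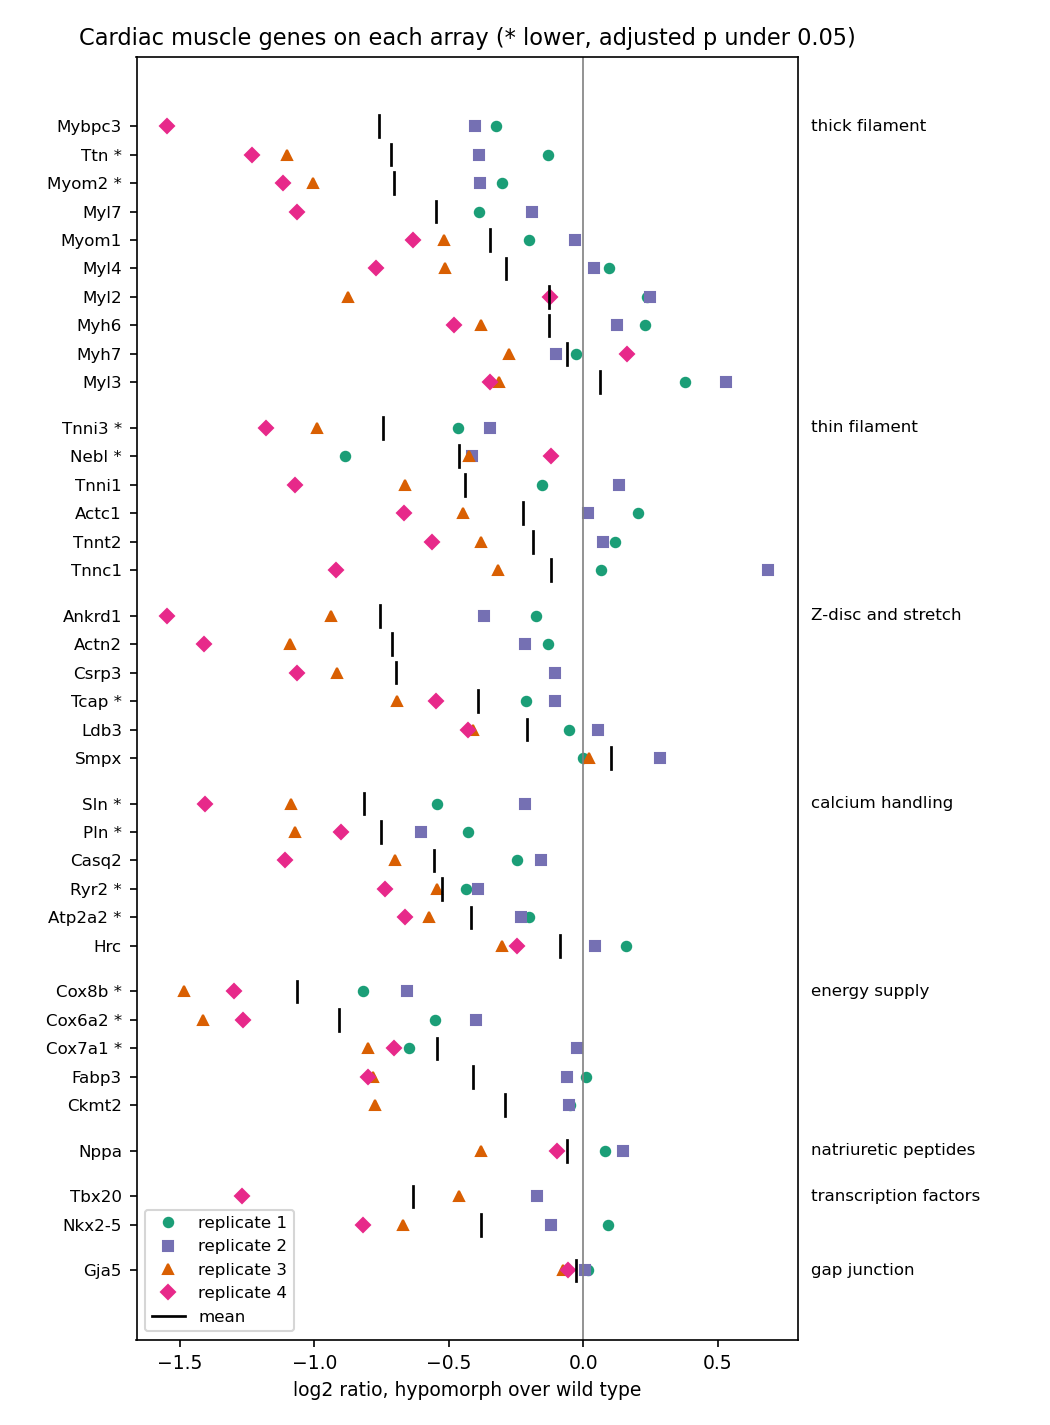
Log2 ratio of hypomorph over wild type (x axis) for the 37 measured cardiac muscle genes (rows, grouped by role). Each symbol is 1 array, the bar is the mean, and the 12 genes with an asterisk were called lower. Replicates 3 and 4 hold most of the lowest ratios, and on each of them 34 of 35 members with a value lie below 0. The shares of all genes below 0 there are 50.5% and 48.9%.

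Upstream sequence is shown for the called gene with the lowest ratio in each of 4 roles for which a promoter was at hand, since these genes were called lower together. The sequences are from RefSeq, build GRCm38.p6, and run from 250 bases before the gene's start to 50 bases after it, so they are on another build than the probe positions given below, which are mm8. Short motifs of muscle transcription factors were searched on both strands, namely the MEF2 box and the CArG box of serum response factor, both by name, AGATAA of GATA factors, and CATTCC, the M-CAT motif of TEAD factors. Capitals mark matches. Ttn lies at chr2:76982498-76982797 on the minus strand, Tnni3 at chr7:4522479-4522778 on the minus strand, Pln at chr10:53337436-53337735 on the plus strand and Cox8b at chr7:140900397-140900696 on the minus strand.
Ttn: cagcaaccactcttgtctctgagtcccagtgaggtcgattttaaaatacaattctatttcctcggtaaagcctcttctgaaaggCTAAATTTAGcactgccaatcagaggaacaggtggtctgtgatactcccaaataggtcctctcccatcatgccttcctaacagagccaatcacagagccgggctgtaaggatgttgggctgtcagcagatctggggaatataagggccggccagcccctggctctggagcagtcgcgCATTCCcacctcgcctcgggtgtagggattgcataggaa
Tnni3: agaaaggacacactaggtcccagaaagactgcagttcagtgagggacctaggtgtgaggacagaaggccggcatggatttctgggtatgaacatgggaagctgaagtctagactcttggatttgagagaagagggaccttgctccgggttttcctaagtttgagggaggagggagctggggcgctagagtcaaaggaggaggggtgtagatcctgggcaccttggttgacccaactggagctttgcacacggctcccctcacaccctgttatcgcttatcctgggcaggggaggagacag
Pln: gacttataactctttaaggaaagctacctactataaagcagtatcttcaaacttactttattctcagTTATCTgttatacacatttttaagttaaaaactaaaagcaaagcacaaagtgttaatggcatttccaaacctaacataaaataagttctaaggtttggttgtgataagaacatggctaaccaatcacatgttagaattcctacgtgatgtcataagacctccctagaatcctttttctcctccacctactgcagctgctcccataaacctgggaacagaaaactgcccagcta
Cox8b: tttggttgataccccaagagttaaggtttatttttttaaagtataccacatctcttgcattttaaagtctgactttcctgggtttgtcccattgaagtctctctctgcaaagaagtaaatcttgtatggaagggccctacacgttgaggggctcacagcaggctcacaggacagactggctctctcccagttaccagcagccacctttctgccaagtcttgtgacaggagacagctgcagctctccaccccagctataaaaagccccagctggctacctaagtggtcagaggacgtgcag
The Ttn window holds a MEF2 box at position -166 relative to the start and an M-CAT motif at position 12, and the Pln window holds a GATA motif on the minus strand at position -183. The Tnni3 and Cox8b windows hold none of these letters, and no matches overlap in the windows shown. Of the 38 members, 33 had a promoter in the table. A MEF2 box was in 3 of these 33 (9.09%), against 882 of 27025 promoters in all (3.26%). A CArG box was in 5 of 33 (15.2%), against 1.57% of all promoters, and it was in Actc1, Ldb3, Myl3, Myl7 and Myom1. The GATA motif was in 9 of 33 (27.3%), against 11.4% of all, and the M-CAT motif in 10 of 33 (30.3%), against 14.6% of all. Among the 7 called members with a promoter, 1 held a MEF2 box, 0 a CArG box, 3 the GATA motif and 2 the M-CAT motif.

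Cox8b and Cox6a2, of energy supply, had the lowest mean ratios of the members. With plain background subtraction and with the processed signals Pln was lower than Cox8b, at -1.33 against -1.18 and at -1.51 against -1.17. Cox8b encodes the muscle-type form of cytochrome c oxidase subunit 8, an enzyme complex of the respiratory chain, and its probe lies at chr7:140750273-140750332. Its level, as log2 normalized intensity, was 8.55, 8.66, 8.66 and 8.61 in hypomorph pools 1 to 4, against 9.37, 9.31, 10.15 and 9.90 in wild type pools 1 to 4. The 4 hypomorph pools were nearly level, all 4 wild type pools were above them, and wild type pools 3 and 4 were the highest. The mean log2 ratio was -1.06 ± 0.39 (SD, n = 4), or 2.09-fold lower, with an adjusted p of 0.00664 in limma. Cox6a2, the muscle form of subunit 6a (chr7:127996794-127996853), had levels of 9.79, 9.84, 10.02 and 9.86 in hypomorph pools, against 10.34, 10.24, 11.44 and 11.12 in wild type pools. Again the groups did not overlap, and wild type pools 3 and 4 stood above wild type pools 1 and 2. Its mean ratio was -0.91 ± 0.51 (SD, n = 4), or 1.87-fold lower, with an adjusted p of 0.0189 in limma. Cox7a1, the muscle and heart form of subunit 7a (chr7:29894078-29894689), had levels of 10.52, 11.08, 10.49 and 10.57 in hypomorph pools, against 11.17, 11.10, 11.29 and 11.28 in wild type pools. Here hypomorph pool 2 was far above the other hypomorph pools and nearly reached the wild type range, and the 4 wild type pools were close together. The mean ratio of Cox7a1 was -0.54 ± 0.35 (SD, n = 4), with an adjusted p of 0.0305 in limma. Without replicate 3, Cox6a2 and Cox7a1 did not pass the test, with adjusted p of 0.059 and 0.101, and without replicate 4 they were at 0.0644 and 0.0963. Fabp3, the heart-type fatty acid binding protein, had ratios of 0.01, -0.06, -0.78 and -0.80 on replicates 1 to 4 and did not pass the test (adjusted p 0.107). Ckmt2, the sarcomeric mitochondrial creatine kinase, had ratios of -0.05, -0.05 and -0.77 on replicates 1 to 3 and no value on replicate 4, where its spot was marked as an outlier (adjusted p 0.224). For both, only replicate 3 and, where measured, replicate 4 were clearly below 0.

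The ubiquitous relatives of these muscle forms were read from a separate list. Of its 6 genes, 4 were measured, 1 was lower and 0 were higher, with a median of -0.12. Those not measured were Cox6a1 and Cox8a, so Cox6a2 and Cox8b could not be set against their ubiquitous forms. Among all genes tested, 13.2% were lower and 14% were higher. The gene called was Ckmt1, the ubiquitous mitochondrial creatine kinase, at -0.45 ± 0.11 (adjusted p 0.00501, n = 4). Cox7a2, the widely used form of subunit 7a, was at -0.19 and did not pass the test (adjusted p 0.248), nor did Fabp5, the epidermal-type fatty acid binding protein, at 0.12 (adjusted p 0.113).

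Calcium handling held 4 of the 12 called genes, with a median ratio of -0.54 over its 6 members. Sln encodes sarcolipin, a small inhibitor of the reticulum's calcium pump that in mouse heart is made in the atria. Its measured probe (chr9:53651904-53651963) read 12.03, 12.15, 12.36 and 11.72 in hypomorph pools, against 12.57, 12.36, 13.44 and 13.13 in wild type pools. The groups touched without overlapping, since hypomorph pool 3 and wild type pool 2 were nearly level, and the lowest pool was hypomorph 4. The mean log2 ratio was -0.81 ± 0.53 (SD, n = 4), or 1.76-fold lower, with an adjusted p of 0.0294 in limma. Without replicate 3 it was -0.72 with an adjusted p of 0.0992, and without replicate 4 it was -0.62 with an adjusted p of 0.069. A second Sln probe stayed at background on all 4 arrays in both genotypes. Pln encodes phospholamban, the pump's inhibitor in ventricle and slow muscle and, at a lower level, in atrium. Its probe (chr10:53033553-53033612) read 6.75, 6.55, 6.72 and 6.73 in hypomorph pools, against 7.18, 7.15, 7.79 and 7.63 in wild type pools, so the groups were apart on every array. The mean ratio was -0.75 ± 0.29 (SD, n = 4), or 1.68-fold lower, with an adjusted p of 0.00771 in limma. These readings were close to the lowest that counted as well above background, which lay between 6.19 and 6.37 on the hypomorph channel and between 6.22 and 6.36 on the wild type channel. The size of the Pln ratio depended on how background was handled, with a mean of -1.01 at a normexp offset of 16, -1.33 with plain subtraction and -1.51 with the processed signals or the series table.

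Ryr2, the calcium release channel of the heart's reticulum, was the most even of the called members across arrays. Its brightest probe (chr13:11607706-11607765) had ratios of -0.44, -0.39, -0.54 and -0.74, and all 4 hypomorph pools were below all 4 wild type pools. The mean was -0.53 ± 0.15 (SD, n = 4), or 1.44-fold lower, with an adjusted p of 0.00564 in limma. A second measured Ryr2 probe averaged -0.23 and passed the test among probes. Atp2a2 encodes SERCA2, the calcium pump itself, which many other cell types use as well. Its brightest probe (chr5:122714312-122714371) had ratios of -0.20, -0.23, -0.57 and -0.66, with a mean of -0.42 ± 0.23 (SD, n = 4) and an adjusted p of 0.0236. Its other measured probes read -0.29 and 0.14 on average, so the probes of this gene disagreed, and over the mean of its probes it was at -0.19 and no longer passed. It also missed the test without replicate 2, 3 or 4, with adjusted p of 0.0653, 0.0871 and 0.0656. Casq2, the calcium-binding protein of the reticulum in heart, had ratios of -0.25, -0.16, -0.70 and -1.11 and an adjusted p of 0.0502. Hrc, a calcium-binding partner in the reticulum, was above 0 on replicates 1 and 2 (0.16 and 0.05) and below 0 on replicates 3 and 4 (-0.30 and -0.25), with an adjusted p of 0.485.

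**Figure D2:**
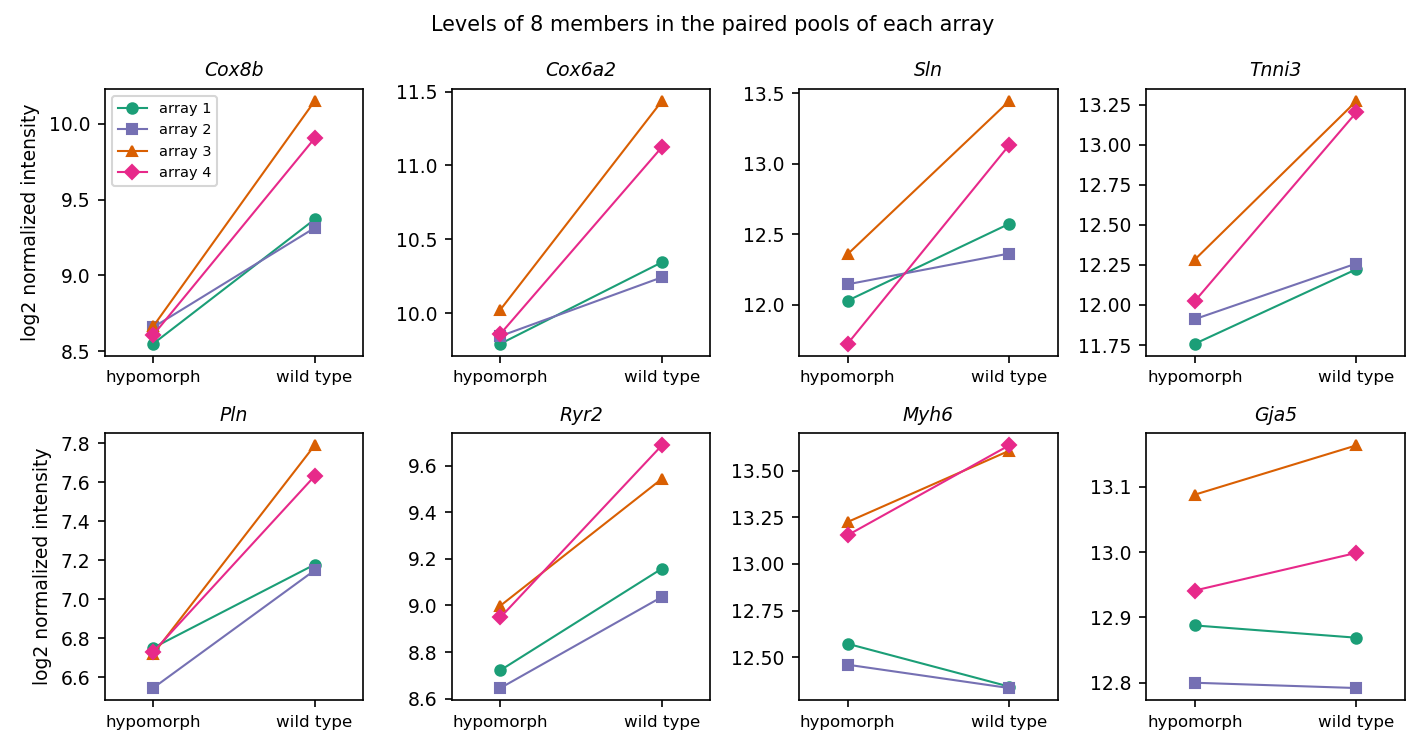
Levels of 8 members as log2 normalized intensity (y axis, own scale in each panel) in the hypomorph pool (left) and the wild type pool (right) of each array. Each line joins the pools that shared an array. For Cox8b, Cox6a2, Pln, Sln and Ryr2 the 4 hypomorph values lie below the 4 wild type values, while for Myh6 and Gja5 the values differ more between arrays than between genotypes.

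Among the thin filament genes, Tnni3 and Nebl were lower. Tnni3 encodes cardiac troponin I, the inhibitory troponin subunit of heart muscle. Its brightest probe (chr7:4122602-4122661) read 11.76, 11.91, 12.28 and 12.02 in hypomorph pools, against 12.22, 12.26, 13.27 and 13.20 in wild type pools. The hypomorph pool was the lower one on each array, though hypomorph pool 3 was slightly above wild type pools 1 and 2. The mean ratio was -0.75 ± 0.402 (SD, n = 4), or 1.68-fold lower, with an adjusted p of 0.0178, and without replicate 3 it was -0.66 with an adjusted p of 0.0689. With the processed signals it was -0.52 with an adjusted p of 0.0782. A second Tnni3 probe averaged -0.54. Nebl encodes nebulette, which binds actin near the Z-disc, and went against the order of the arrays. Its brightest probe (chr2:17645538-17645597) had ratios of -0.89, -0.41, -0.43 and -0.12, so replicate 1 was the lowest. The mean was -0.46 ± 0.32 (SD, n = 4) with an adjusted p of 0.0365, and 0.122 without replicate 2 and 0.0995 without replicate 3. Nebl was at -0.15 under median centring and did not pass there (adjusted p 0.175). Its other measured probes, at chr2:17262338-17262397 and chr2:17265097-17265156, averaged -0.11 and -0.10 and did not pass the test among probes.

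The other thin filament genes did not pass the test. Tnni1, the slow skeletal and fetal heart troponin I, had ratios of -0.15, 0.13, -0.66 and -1.07. Actc1, cardiac alpha-actin, had ratios of 0.21, 0.02, -0.45 and -0.67, and Tnnt2, cardiac troponin T, had 0.12, 0.07, -0.38 and -0.56. All 3 genes were lower in the hypomorph pool on replicates 3 and 4, and near or above 0 on replicate 2. Tnnc1, the troponin C of heart and slow muscle, was uneven, with ratios of 0.07, 0.69, -0.32 and -0.92. On replicate 2 both pools of Tnnc1 were high, at 11.94 for the hypomorph and 11.26 for the wild type, and the hypomorph pool was the highest of the 8.

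Of the thick filament genes, Ttn and Myom2 were lower. Ttn encodes titin, the giant spring between Z-disc and M-line, and its brightest measured probe (chr2:76505330-76505389) had ratios of -0.13, -0.39, -1.10 and -1.23. The mean was -0.71 ± 0.54 (SD, n = 4), or 1.64-fold lower, with an adjusted p of 0.0426, and it missed the test without replicate 2, 3 or 4, at 0.0987, 0.131 and 0.114. The other 3 measured Ttn probes averaged -0.63, -0.31 and -0.27, none passed the test among probes (adjusted p 0.0523, 0.155 and 0.0807), and 5 more Ttn probes were not measured. The mean over the 4 measured probes was -0.52, which did not pass either (adjusted p 0.0629). Myom2 encodes myomesin 2, an M-line protein of adult-type striated muscle (chr8:15133299-15133358), and had ratios of -0.30, -0.39, -1.01 and -1.12. Its mean was -0.70 ± 0.42 (SD, n = 4), or 1.63-fold lower, with an adjusted p of 0.0233, and 0.0645, 0.0813 and 0.0649 without replicate 2, 3 or 4. For both genes the ratios on replicates 3 and 4 were lower than those on replicates 1 and 2.

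The remaining thick filament genes did not pass the test, and the main heart myosins were among them. Myh6, the fast heart myosin, read 12.57, 12.46, 13.22 and 13.15 in hypomorph pools, against 12.34, 12.33, 13.61 and 13.64 in wild type pools, with a mean ratio of -0.13 ± 0.36 (SD, n = 4, adjusted p 0.492). Both genotypes were thus higher on arrays 3 and 4 than on arrays 1 and 2, and the hypomorph pool was the higher one on arrays 1 and 2. The Myh6 probes disagreed: a second one, at chr14:53898964-53900549, had ratios of -0.25, -0.27, -0.89 and -0.67 and an adjusted p of 0.0243 among probes, while the brightest one is at chr14:53900628-53900687. Myh7, the slow myosin of ventricle and slow muscle, had ratios of -0.03, -0.10, -0.28 and 0.16 (adjusted p 0.568). Mybpc3, cardiac myosin binding protein C, had ratios of -0.32, -0.40 and -1.55 on replicates 1, 2 and 4, with a mean of -0.76 over 3 arrays (adjusted p 0.0848). Its spot on replicate 3 was marked as an outlier, and with such spots kept it was -1.39 and the gene passed the test. Myom1, the other myomesin, had ratios of -0.20, -0.03, -0.52 and -0.63, with a mean of -0.35 and an adjusted p of 0.0569. A second Myom1 probe averaged -0.47 with an adjusted p of 0.00731 among probes, and another averaged -0.19. The light chains of the heart myosins are given with the atrial and ventricular genes below.

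Among genes of the Z-disc and of stretch sensing, Tcap was lower and 5 did not pass the test. Tcap encodes telethonin, which caps titin at the Z-disc (chr11:98200903-98200962), and had ratios of -0.21, -0.11, -0.69 and -0.55. The mean was -0.39 ± 0.28 (SD, n = 4), or 1.31-fold lower, with an adjusted p of 0.0409, and 0.0649, 0.114 and 0.122 without replicate 2, 3 or 4. Ankrd1, a stretch-responsive repeat protein of heart muscle, had ratios of -0.18, -0.37, -0.94 and -1.55, with a larger mean of -0.76 and an adjusted p of 0.0521. Actn2, the alpha-actinin of heart and skeletal Z-discs, had ratios of -0.13, -0.22, -1.09 and -1.41 (adjusted p 0.0648). Csrp3, the muscle LIM protein, had -0.11, -0.91 and -1.06 on replicates 2 to 4 (adjusted p 0.0557). The SD over arrays was 0.618 for Ankrd1, 0.636 for Actn2 and 0.516 for Csrp3, not far below the size of their means. Ldb3, the Z-disc protein cypher, had ratios of -0.05, 0.06, -0.41 and -0.43 (adjusted p 0.148). Smpx, a small stretch-responsive muscle protein, was the member with the highest mean, at 0.10 ± 0.16 (SD, n = 3, adjusted p 0.342). It had ratios of 0.00, 0.29 and 0.02 on replicates 1 to 3 and, with the marked spot kept, -0.37 on replicate 4, which turned its mean to -0.02.

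The transcription factors did not pass the test. Nkx2-5, a homeobox factor of heart muscle, had ratios of 0.09, -0.12, -0.67 and -0.82 (mean -0.38, adjusted p 0.121). Tbx20, a T-box factor of the heart, had ratios of -0.17, -0.46 and -1.27 on replicates 2 to 4 (mean -0.63, n = 3, adjusted p 0.0843). Both were lowest on replicate 4. Of the natriuretic peptide genes, Nppb was not measured: its 2 probes rose above background on at most 2 arrays in each genotype, short of the 3 required.

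The plot of ratios by array shows how far the arrays differed. The median ratio of the members was -0.13, -0.11, -0.66 and -0.80 on replicates 1 to 4, while that of all genes was -0.02, 0.01, -0.00 and 0.00. Below 0 were 22 of 35 members on replicate 1, 24 of 37 on replicate 2, 34 of 35 on replicate 3 and 34 of 35 on replicate 4. Of all genes, 52.8%, 48.0%, 50.5% and 48.9% were below 0 on these arrays. Members at or below -1 on the log2 scale numbered 0, 0, 7 and 14, against 1.45%, 0.23%, 0.30% and 0.23% of all genes. Among the 31 members with values on all 4 arrays, the lowest ratio was on replicate 4 for 20, on replicate 3 for 10 and on replicate 1 for 1, which was Nebl. Of all genes with 4 values, 25.3%, 19.1% and 37.6% had their lowest ratio on those arrays. The median SD over arrays was 0.402 for the 31 members and 0.11 for all genes, and 19 of the 31 were above the 95th percentile of all genes, 0.34. Without replicates 3 and 4, the median of the members was -0.12.

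Levels in single pools were compared across arrays. Each pool was read on 1 array, so effects of pool and array cannot be told apart. Relative to each gene's mean over 8 pools, the median level of the 31 members was -0.34, -0.37, -0.02 and -0.21 in hypomorph pools 1 to 4, against -0.19, -0.24, 0.71 and 0.57 in wild type pools 1 to 4. All genes were within 0.02 of 0 in each pool by the same measure. Wild type pools 3 and 4 thus stood apart, and the other 6 pools lay closer to each other. Hypomorph pools 3 and 4 were also above hypomorph pools 1 and 2. The highest of the 8 pools was wild type 3 for 22 members and wild type 4 for 7, against 8.91% and 14.5% of all genes. The exceptions were Tnnc1, highest in hypomorph pool 2, and Nebl, highest in wild type pool 2. In 7 of the 31 members every hypomorph pool was below every wild type pool: Ryr2, Pln, Sln, Atp2a2, Cox6a2, Cox7a1 and Cox8b. Over all genes with 8 values this share was 8.74%. The ratio was below 0 on every array with a value in 21 of the 37 members, against 26.7% of all genes. Of the 57 measured member probes, 20 were lower and 0 were higher when each probe was tested singly, against 12.2% and 12.7% of all probes.

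**Figure D3:**
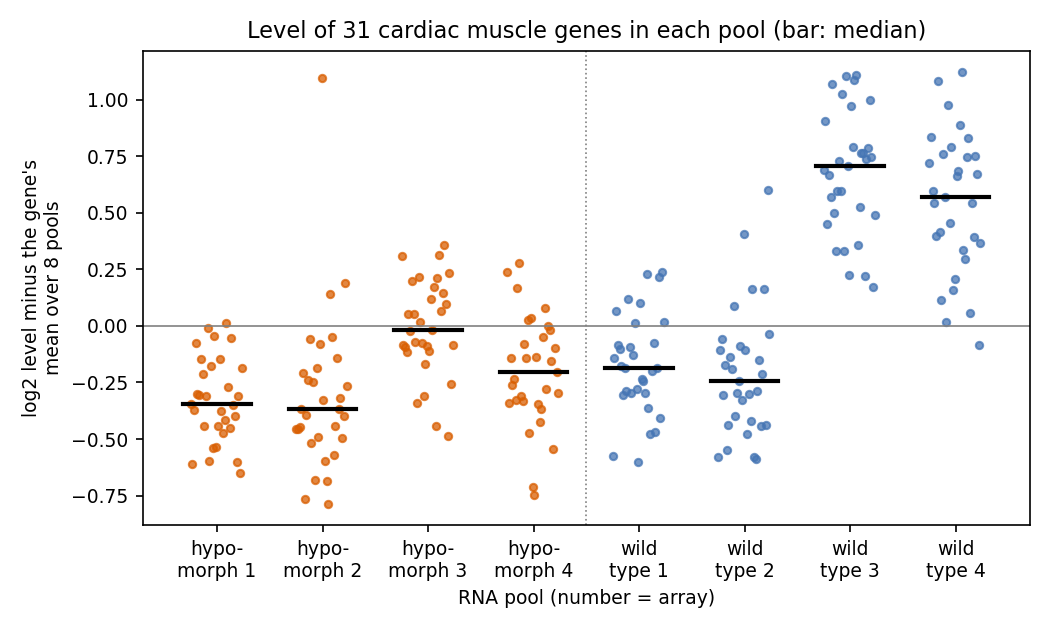
Level of 31 cardiac muscle genes with 8 values in each RNA pool, as log2 level minus the gene's mean over 8 pools (y axis), hypomorph pools left and wild type pools right. Points are genes and bars are medians, which lie at 0.71 and 0.57 in wild type pools 3 and 4 and between -0.37 and -0.02 in the other pools.

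**Figure D4:**
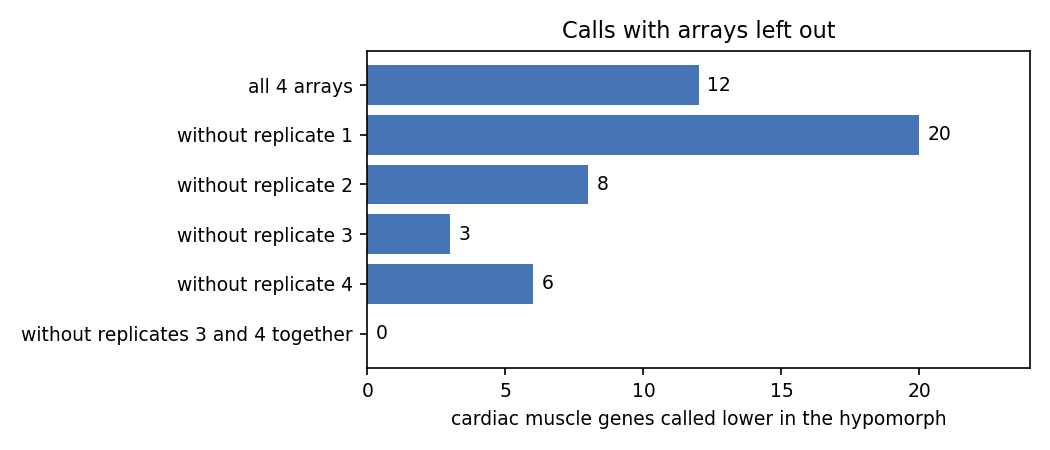
Number of cardiac muscle genes called lower in the hypomorph (x axis, adjusted p under 0.05) with all 4 arrays, with each array left out, and without replicates 3 and 4. The count is 12 with all arrays and ranges from 3 to 20 when a single array is left out. Lower calls over all genes were 2726 with all arrays and ranged from 660 to 2951 with a single array left out.

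The mean ratios of the 5 atrial members ran from -0.81 for Sln to -0.03 for Gja5. Besides Sln, the atrial genes were Myl7 and Myl4, the regulatory and essential myosin light chains of the atrium, Nppa, the atrial natriuretic peptide, and Gja5, a connexin of atrial muscle that arterial endothelium makes as well. Myl7 (chr11:5796640-5796699) had levels of 14.56, 14.78 and 14.68 in hypomorph pools 1, 2 and 4, against 14.95, 14.97 and 15.74 in wild type pools 1, 2 and 4. The hypomorph pools of Myl7 were all below the wild type pools, and its mean ratio was -0.55 ± 0.46 (SD, n = 3) with an adjusted p of 0.0754. On replicate 3 the Myl7 spot was left out because it was marked as an outlier. With marked spots kept, its ratio there was -0.75, and the mean of -0.60 passed the test (adjusted p 0.0282). Myl4 had ratios of 0.10, 0.04, -0.51 and -0.77 and an adjusted p of 0.206. Nppa was spotted 10 times per array with its measured probe, and the means over its unmarked spots were 0.08, 0.15, -0.38 and -0.10. The SD over those spots was between 0.06 and 0.09 on each array. Gja5 had ratios of 0.02, 0.01, -0.08 and -0.06, with a mean ratio of -0.03 ± 0.05 (SD, n = 4, adjusted p 0.645). Of the 5 atrial members, Gja5 was the one whose ratio stayed within 0.08 of 0 on every array. Its other 3 measured probes averaged 0.04, 0.13 and 0.07. Those at 0.04 and 0.07 were dim, with a mean log2 brightness of 6.98 and 6.70. The probe at 0.07 is placed at chr3:98497154-98497213, away from the brightest one at chr3:97138831-97138890. The mean of Gja5 was above 0 with the processed signals, the deposited series table, median centring and the mean of all its probes.

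The ventricular members were Myl2 and Myl3, the light chains of ventricular and slow myosin, and Myh7. Myl2 had ratios of 0.24, 0.25, -0.88 and -0.12 (mean -0.13, adjusted p 0.635) and Myl3 had 0.38, 0.53, -0.31 and -0.35 (mean 0.06, adjusted p 0.798). Both were higher in the hypomorph pool on replicates 1 and 2 and lower on replicates 3 and 4. A second Myl3 probe did not follow that order, with ratios of 0.28, -0.03, 0.31 and 0.05. Myl2 was dim, with levels from 6.71 to 6.91 in hypomorph pools and from 6.55 to 7.58 in wild type pools. Its lowest pool was 0.24 above the lowest reading well above background. The ventricular mean below thus includes a gene close to background. The mean of the atrial members was -0.15, -0.04, -0.51 and -0.68 on replicates 1 to 4, and that of the ventricular members 0.20, 0.23, -0.49 and -0.10. The difference, atrial minus ventricular, was -0.34, -0.27, -0.03 and -0.58, with a mean of -0.30 ± 0.23 (SD, n = 4 arrays), below 0 on 4 of 4 arrays. On replicate 3 that sign rested on Sln, at -1.09. Myl4, Nppa and Gja5 were at -0.51, -0.38 and -0.08 there, against the ventricular mean of -0.49. Replicate 3 had no Myl7 value, and with only the 4 atrial members measured on every array the difference was -0.28, -0.23, -0.03 and -0.48, with a mean of -0.26 ± 0.19 (SD, n = 4 arrays). No p is given for it, since the genes were chosen with results of these data known. A further 7 chamber genes were looked up, of which 6 were measured. The 4 measured atrial ones had a median of -0.42, with 1 lower and 0 higher, and the 2 ventricular ones had a median of -0.09, with neither called. Shares called over all genes were 13.2% lower and 14% higher. Kcnj3, a potassium channel subunit of atrial muscle, was lower at -0.48 ± 0.29 (SD, n = 4, adjusted p 0.0258). Its probe was dim, with a mean log2 brightness of 6.57, close to the lowest readings well above background. A ventricular gene of this list was also dim, at 6.77, so these medians rest in part on dim probes. Kcna5, an atrial potassium channel, was at -0.29 and did not pass the test (adjusted p 0.114).

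The remaining second probes were below 0 on average like the main ones. Tnni1 averaged -0.42 with a second probe and -0.44 with the main one, and Tnnt2 -0.24 and -0.19. Ldb3 averaged -0.13 with a second probe and -0.21 with the main one, and Tbx20 -0.37 and -0.63. The second probe of Tnnt2 passed the test among probes (adjusted p 0.0477), but no hypomorph array showed it well above background, and the other 3 did not pass. Of the 16 member probes not measured, 5 were of Ttn, 2 each of Nppb and Tbx20, and 1 each of Atp2a2, Ldb3, Myh7, Myl4, Nppa, Ryr2 and Sln.

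**Figure D5:**
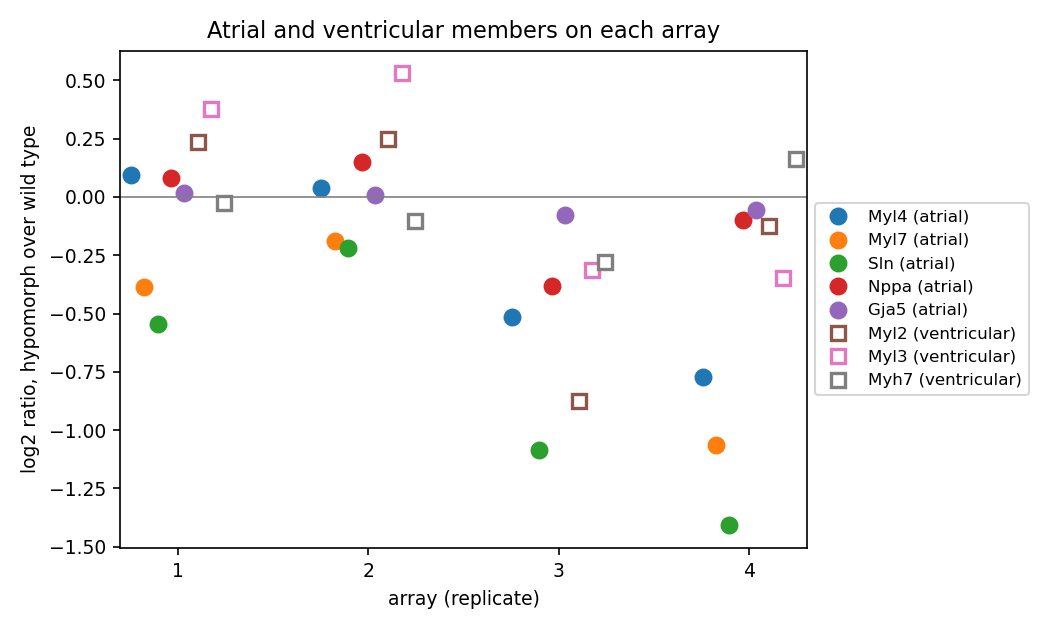
Log2 ratio of hypomorph over wild type (y axis) for the 5 atrial members (filled circles) and the 3 ventricular members (open squares) on each array (x axis). Sln and Myl7 are the lowest atrial members, Gja5 lies near 0 on every array, and Myl2 and Myl3 are above 0 on replicates 1 and 2 only.

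Other heart genes that are no members were read from 3 further lists, to be set against 13.2% lower and 14% higher over all genes tested. Among 15 measured calcium and electrical genes, 6 were lower and 0 were higher, with a median of -0.18. They included Bves, a membrane protein of heart muscle, at -0.75 ± 0.39 (adjusted p 0.0159, n = 4), Trdn, triadin, a partner of the release channel, at -0.81 ± 0.523 (adjusted p 0.0287, n = 4), and Gja1, the main connexin of ventricular muscle, at -0.24 ± 0.0973 (adjusted p 0.0209, n = 4). The ratios of Trdn were -0.27, -0.46, -1.13 and -1.36, lowest on replicates 3 and 4. Gja1, which many cell types make, had ratios of -0.22, -0.24, -0.14 and -0.37, lowest on replicate 4. Among 19 measured structural genes, 2 were lower and 0 were higher, with a median of -0.07: Unc45b, a myosin chaperone, at -0.36 and Myoz2, a Z-disc protein, at -0.59 (adjusted p 0.00976 and 0.032). The share of structural genes called lower was below that of all genes. Trim63, a muscle ubiquitin ligase, was at -0.46 and did not pass the test (adjusted p 0.0548). Among 12 measured heart transcription factors, 3 were lower and 2 were higher. Myocd, a coactivator in heart and smooth muscle, was at -0.43, and Tbx3, a T-box factor also made in lung mesenchyme, at -0.45 over 3 arrays (adjusted p 0.00515 and 0.00616). Gata4, a zinc finger factor, was higher at 0.29 (adjusted p 0.0087). At an unadjusted p under 0.05, limma gave 21.7% lower and 21.5% higher over all genes. By that threshold 8 of 15 calcium and electrical genes, 5 of 19 structural genes and 3 of 6 chamber genes were lower, and 0 were higher in these lists. Of the 12 transcription factors 3 were lower and 2 were higher. Among the 4 measured ubiquitous relatives of the mitochondrial genes, 1 was lower and 1 was higher.

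By use in skeletal muscle, 13 members are at most weakly expressed there, of which 12 were measured and 4 were lower, with a median of -0.49. Of the 25 members shared with slow or fetal skeletal muscle, 8 were lower, with a median of -0.41. Of 24 measured fast or general skeletal muscle markers, 4 were lower and 4 were higher, with a median of 0.01. The shares over all genes tested were 13.2% lower and 14% higher. Neb, nebulin, was lower at -0.76 ± 0.107 (adjusted p 0.00154, n = 4), whereas Myod1, a skeletal muscle regulator, was higher at 1.43 ± 0.135 (adjusted p 0.00143, n = 3) and Myh3, embryonic myosin, at 0.44 ± 0.143 (adjusted p 0.00753, n = 4). The summed level of the skeletal markers ran from 13.22 to 13.60 in hypomorph pools and from 13.28 to 14.02 in wild type pools, on the log2 scale. The summed level of the cardiac members ran from 16.99 to 17.35 in hypomorph pools and from 17.11 to 17.83 in wild type pools. The part of skeletal muscle in the result was not tested.

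Some markers of other cells were called as well, to be read against 13.2% lower and 14% higher over all genes tested. The part of these cells in the result was not tested. Of 8 endothelial markers, 5 were lower and 1 was higher, with a median of -0.18. Cldn5 was lower at -0.31 and Kdr at -0.29, while Tek was higher at 0.23 (adjusted p 0.0105, 0.0124 and 0.0229). The summed endothelial level ran from 16.94 to 17.17 in hypomorph pools and from 17.26 to 17.35 in wild type pools. Of 5 mesothelial markers, 4 were lower and 0 were higher, with a median of -0.45, and their summed level ran from 14.70 to 14.93 in hypomorph pools and from 14.88 to 15.19 in wild type pools. Lrrn4 was at -0.69, Krt19 at -0.31 and Msln at -0.65 (adjusted p 0.0068, 0.00928 and 0.0136). Of 9 smooth muscle markers, 2 were lower and 1 was higher, with a median of -0.06 and a summed level from 16.002 to 16.381 in hypomorph pools and from 15.954 to 16.422 in wild type pools. Tagln was at -0.32, Synpo2 at -0.57 and Myh11 at 0.18 (adjusted p 0.00602, 0.00992 and 0.0239). The median ratio on replicates 1 to 4 was -0.08, -0.16, -0.18 and -0.19 for the endothelial markers, -0.45, -0.33, -0.56 and -0.39 for the mesothelial ones and 0.12, -0.01, -0.18 and -0.16 for the smooth muscle ones. Relative to each gene's mean over 8 pools, the smooth muscle median was at most 0.15 in hypomorph pools, against 0.26 and 0.21 in wild type pools 3 and 4, and the endothelial median at most 0.03 in hypomorph pools, against 0.14 and 0.20. Wild type pools 3 and 4 thus had the highest medians of the 8 pools in both lists, as in the cardiac members. The skeletal, mesothelial, lung and liver lists differed. Wild type pool 3 was highest in the first 3 of these, at 0.21, 0.37 and 0.23. Wild type pool 4 was at 0.03 for skeletal markers, against 0.09 in hypomorph pool 3, and at 0.01 for lung markers, against 0.15 in hypomorph pool 4. For mesothelial markers it was at 0.13, against 0.14 in wild type pool 1. For liver markers wild type pools 3 and 4 were the lowest, at -0.27 and -0.43.

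Of 10 defining markers of lung epithelium, 7 were measured, with 1 lower and 1 higher and a summed level from 16.96 to 17.20 in hypomorph pools and from 17.06 to 17.23 in wild type pools. For this list and the 2 that follow, the shares over all genes were again 13.2% lower and 14% higher. Aqp5, a water channel of the alveolar lining, was lower at -0.66, Nkx2-1, a lung epithelial factor, was higher at 0.19, and Foxj1, a factor of ciliated cells, was at 0.28 (adjusted p 0.00144, 0.0373 and 0.081). Scgb1a1, Sftpc and Sftpd were above background in both genotypes on 4 arrays, but their spots were marked as outliers on most arrays and were left out. Red cell markers had 1 lower and 0 higher of 3 measured (median -0.18, summed level 14.49 to 14.92 in hypomorph pools and 14.67 to 15.26 in wild type pools). Their median ratio was -0.10, -0.11, -0.22 and -0.42 on replicates 1 to 4, and the median level of the 2 with values in all 8 pools, relative to each gene's mean, was at most 0.12 in hypomorph pools, against 0.30 and 0.54 in wild type pools 3 and 4, again the highest of the 8 pools. Liver markers had 2 lower and 0 higher of 4 measured (median -0.12, summed level 9.25 to 9.68 in hypomorph pools and 9.09 to 10.38 in wild type pools). Fgf8 itself had ratios of -0.31, -0.23, -0.09 and -0.09, with a mean of -0.18 ± 0.11 (SD, n = 4) and an adjusted p of 0.0549, and its probe's place relative to the altered allele was not stated. Between 32731 and 34519 of 43379 spots per array were well above background on the hypomorph channel and between 32491 and 33744 on the wild type channel. No member spot was saturated, and between 5 and 9 of the 91 member spots per array were marked as outliers.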

How the data were processed

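Total RNA of E18.5 mouse lungs was hybridised to 4 two-colour Agilent arrays, hypomorph pools in Cy5 and wild type pools in Cy3 on each, per the labels, so a dye effect cannot be told apart from genotype. All 4 arrays were on 1 slide read in 1 scan, per the file headers. Per the submitters' processing notes, the software that read the spots was Agilent Feature Extraction 9.5.1. Mean and background intensities, as deposited, are raw scanner values, and the processed intensities were background-subtracted and dye-normalized, per the file headers. The log10 ratio column is processed red over green, per the file headers. The deposited series table holds log2 values, which equalled log2 of processed red over green on each array, so its scale, centring and direction were settled from the values.

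Mean intensities were corrected with normexp (limma 3.58.1, R 4.3.3; offset 50) and normalized by loess (span 0.3; control spots at weight 0). Control spots and spots marked as outliers were left out. A probe counted as measured if at least 3 arrays gave it a value and at least 3 showed it well above background in either channel, and a gene was read from its brightest measured probe. Ratios against 0 were tested with limma and Benjamini-Hochberg adjustment over all genes. Levels are log2 intensities per channel after loess and Aquantile, and summed levels are log2 of the sum of linear intensities over genes with 8 values. Symbols were updated through RefSeq accessions for 24375 of 41174 probes, and no member's probes changed. The fit was tested on simulated data with independent noise for each gene, so that test does not cover genes that shift together over arrays.

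The members and lists were chosen with earlier results of these data known. All members, Fgf8 and, of each other list, the 3 measured genes with the smallest p are named, except 1 gene that is not reported here. The number of arrays limits the precision, and p-values cover the spread between pools. Alternatives were the processed signals, the series table, other background and loess settings, median centring, scaling, other probe filters, outlier marks, array weights, a separate-channel fit and leaving out arrays.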

Additional observations from a re-analysis of the deposited data

Results flagged for a closer look

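Of 128 groups of 4 values compared, 2 held a value far from the other 3, where chance gives about 1 in 20. In Cox7a1, the hypomorph level on replicate 2 was 11.1, and the nearest other hypomorph pool was at 10.6. In Pln, the hypomorph level on replicate 2 was 6.55, and the nearest other hypomorph pool was at 6.72. In Cox7a1 that pool was the highest of the 4, and in Pln it was the lowest.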

How the results depend on the processing

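Of 12 members called lower, 12 remained under 11 of 21 alternatives, and the count moved from 12 to 7 with the processed signals and 7 with the series table, 19 with array weights, 3 to 20 when 1 array was left out, and 0 without replicates 3 and 4. Calls over all genes moved from 5605 to 10761 under median centring, 1390 to 5898 without 1 array, and 177 without replicates 3 and 4. Members called higher moved from 0 to 3 under median centring. The median of the members ran from -0.51 to -0.12, and the atrial minus ventricular difference from -0.40 to -0.21. Means that changed sign were, under median centring, Myh6 at 0.15, Myh7 at 0.59, Myl4 at 0.0017, Myl7 at 0.0045, Tnnt2 at 0.16, Tnnc1 at 0.069, Actc1 at 0.024, Hrc at 0.081 and Gja5 at 0.25. Gja5 was at 0.0087 with the processed signals and the series table and at 0.050 over all its probes. With outlier spots kept, or with background marks alone ignored, Myh7 was at 0.069 and Smpx at -0.016. Without replicates 3 and 4, Myh6 was at 0.18, Myl2 at 0.24, Myl4 at 0.068, Tnnt2 at 0.096, Tnnc1 at 0.38, Actc1 at 0.11, Ldb3 at 0.0022, Hrc at 0.10, Nppa at 0.11 and Gja5 at 0.013. With 1 array left out, Myh7 ran from -0.13 to 0.012, Myl2 from -0.25 to 0.12, Myl3 from -0.093 to 0.20, Tnnc1 from -0.39 to 0.15 and Nppa from -0.13 to 0.044. Of these sign changes, Myh7 and Gja5 under median centring passed the test, and the cause was not tested. Pairing is by array, and the separate-channel fit with the array as a block kept 12 of 12 calls. A slide block was not run, since 1 slide held all arrays. Leaving out both replicates 3 and 4 and ignoring background marks were chosen after seeing the data.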
